A study of Arabidopsis thaliana with 18 samples.

Results

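The libraries labelled tt3 were 2 of the 18 in the series, tt3-3 and tt3-4, chosen by their titles. They were set against the 12 libraries titled ban, tt1, tt5 and tt8 (2 ban, 2 tt1, 2 tt5 and 6 tt8 alleles). The wild type Col-0 files and the ttg1 libraries were not used here. The RNA of all 14 came from Arabidopsis thaliana seedlings treated alike: the medium held 3% sucrose, the cultures were shaken, the treatment ran over 4 days and the light was on for 24 h. The labels name this treatment AIC and do not expand the letters. Each allele had 1 library, so tt3-3 and tt3-4 stand for 2 insertion lines of the locus TT3 and not for repeats of 1 line. The first is the line SAIL_649_G09 and the second SAIL_1180_D08. Among the 12, ban-7, tt5-3 and tt8-12 also come from the SAIL collection, tt8-7 comes from the GK collection and the other 8 from the SALK collection. The labels do not say where in a gene an insertion lies, nor that libraries came from separate cultures.

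TT3 encodes dihydroflavonol 4-reductase (DFR), which turns dihydroflavonols towards the anthocyanin pigments and the proanthocyanidins that darken seeds. The same dihydroflavonols are turned into flavonols by flavonol synthase (FLS1), so DFR and FLS1 stand at a branch point. The steps before it, from chalcone synthase (CHS) onwards, are driven in seedlings mainly by MYB11, MYB12 and MYB111, while DFR and later steps are driven by complexes of a MYB, a bHLH protein such as TT8 and the WD40 protein TTG1. The loci of the other lines lie in the same system: TT5 encodes chalcone isomerase (CHI), BAN anthocyanidin reductase, TT8 a bHLH protein and TT1 a zinc finger protein. The comparison asks what is shared by the tt3 alleles and not by mutants of these other loci, and where the tt3 alleles differ from each other.

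The total count was 18724321 in tt3-3 and 27145377 in tt3-4, and ran from 13076113 to 24387446 in the 12, with a median of 18334903. Levels are given as CPM, the counts of a gene relative to the counts of all genes tested in its library, after scaling by the TMM method. Before that scaling, and relative to the total count, 3 counts were 0.16 CPM in tt3-3 and 0.111 CPM in tt3-4. They were at most 0.229 CPM in the 12. The first principal component of the 14 libraries carried 52.1% of their variance and scored 1.3 in tt3-3 and 41.3 in tt3-4, against a range from -82.1 in ban-6 to 66.2 in ban-7. The tt3 libraries thus lay inside the spread of the 12, and ban-6, tt5-4, tt8-7 and tt8-8 formed its negative end with tt1-5. Of the mutated genes, CHI was at 4.17 and 4.55 CPM in the tt5 libraries, TT8 ran from 6.77 to 108 CPM over the 12, and BAN and TT1 were too low to be tested. The summed level of the 16 tested photosynthesis genes was 317 CPM in tt3-3 and 227 CPM in tt3-4, against 151 to 595 CPM in the 12. The members varied: RBCS1A was at 170 and 128 CPM in tt3-3 and tt3-4, against 84.1 to 323 CPM in the 12, and LHCB4.1 at 45.2 and 39.2 CPM against 26.4 to 113 CPM. The 3 untested members, LHCB1.1, LHCB1.4 and RBCS1B, had at most 15 counts in any of the 14 libraries. In whole seedlings, fewer cells of a type and less RNA per cell cannot be told apart.

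The gene TT3 itself (DFR, AT5G42800, chromosome 5, 17164093 to 17166032 on the minus strand of TAIR10.1) was not low in the libraries labelled with its insertions. Its level was 197 CPM in tt3-3 (95% Poisson interval 191 to 203) and 272 CPM in tt3-4 (266 to 278). In the 12 it had a low of 34.3, a median of 198 and a high of 258 CPM. The tt3-4 library was the highest of all 14, and tt3-3 lay at the median of the 12. Among the 12, levels were low in tt8-8 (34.3), tt8-7 (35.2), ban-6 (45.4) and tt5-4 (87.8) and were 191 to 258 CPM in the other 8. The fitted log2 fold change was 0.49 ± 0.66 (SE), with an edgeR adjusted p of 0.962. Counts summed over a whole gene do not show whether a transcript is intact, so DFR gave no check of the labels, and the libraries are called by their labels here.

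Few genes were called between the libraries labelled tt3 and the 12. Of 20607 genes tested with edgeR's quasi-likelihood test, 2 were called higher (0.00971% of those tested) and 0 were called lower (0%) at an adjusted p under 0.05. At an unadjusted p under 0.05 there were 245 higher (1.19%) and 365 lower (1.77%), 610 in all (2.96%). DESeq2 called the same pair higher and HRA1 and AT4G22217 lower (2 each way, 0.00719% of 27824 genes with an adjusted p). The median log2 fold change of all genes was -0.04. Every gene other than the 2 called had an edgeR adjusted p of at least 0.962, so the values below describe these libraries unless a call is stated, and SE is the standard error of the fitted log2 fold change.

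Both tt3 libraries stood above all 12 at 159 genes (0.772%) and below all 12 at 264 genes (1.28%). The gaps were narrow. No gene had both tt3 libraries 2-fold above or 2-fold below all 12 (0% each way), and the widest gaps, from the nearer tt3 library to the nearest of the 12, were 1.57-fold above and 1.5-fold below on CPM + 0.5. Counting by plain totals in place of TMM gave 332 above and 137 below, so the share of genes above was 70.8% with plain totals and 37.6% with TMM. Relative to the median of the 12, the median gene of tt3-3 lay at 0.09 on the log2 scale with plain totals. Of the genes above under TMM, 152 were also above under both plain totals and DESeq2 size factors, and of those below 119 were. All 20 genes with the widest gaps, named next, were among these 152 and 119. Without ban-7 the counts were 366 above and 398 below. The same count for other pairs of alleles, each against the other 12, gave 189 above and 105 below for ban, 603 and 399 for tt1, and 119 and 111 for tt5. The counts for tt3 thus lay between those of the other pairs both ways.

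The 10 widest gaps above were at genes of varied roles. CYP89A3, a cytochrome P450, was at 1.5 CPM in tt3-3 and 1.13 CPM in tt3-4, against a low of 0.0774, a median of 0.296 and a high of 0.54 CPM in the 12 (log2 fold change 2.08 ± 0.48). ABCF2, of the ABC transporter family, was at 1.5 and 0.95 CPM in tt3-3 and tt3-4, against 0.158, 0.401 and 0.521 CPM as low, median and high of the 12 (log2 fold change 1.67 ± 0.33). Both genes were low in every library, at 31 counts or fewer of CYP89A3 in a tt3 library. OPR1, a 12-oxophytodienoate reductase related to the enzyme of jasmonate synthesis, was at 157 and 121 CPM in tt3-3 and tt3-4, against 33.9, 69.8 and 99.6 CPM in the 12 (log2 fold change 0.99 ± 0.27, unadjusted p = 0.00273). The acyltransferase family gene AT5G07870 stood at 42.4 and 31.1 CPM in tt3-3 and tt3-4 and had 13.4, 18.1 and 24.9 CPM as low, median and high of the 12 (log2 fold change 0.94 ± 0.21). SIB1, a sigma factor binding protein of defence responses, was at 3.79 and 3.58 CPM against at most 2.81 CPM. The zinc finger gene AT3G46080 was at 36.3 and 33.3 CPM against at most 26.5 CPM. The rest were GGCT2;1, described below, AT4G14165, AT1G23130 and AT3G14710. In each of these 10 genes tt3-3 was the higher of the tt3 libraries, against 98 of all 159 genes above the 12.

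The 10 widest gaps below included 2 flavonoid genes, CHIL and MYB12, which are described with the flavonoid genes. LTP2, a lipid transfer protein of the epidermis, was at 1795 CPM in tt3-3 and 2013 CPM in tt3-4, against a low of 2708, a median of 3469 and a high of 7374 CPM in the 12 (log2 fold change -1.13 ± 0.39, unadjusted p = 0.0113). TBL39, of the trichome birefringence-like family, was at 15.2 and 15.8 CPM in tt3-3 and tt3-4 against 20.1 to 39.1 CPM. AT2G28790, of the thaumatin family, stood at 14.8 and 13.4 CPM in tt3-3 and tt3-4, with 19.5, 25.5 and 40.8 CPM as low, median and high of the 12 (log2 fold change -0.95 ± 0.24). The VQ motif gene AT4G39720 was at 13.5 and 12.2 CPM against 18.0 to 26.0 CPM (log2 fold change -0.70 ± 0.15), and the calmodulin-binding protein gene AT2G24300 at 3.94 and 3.40 CPM against 5.43 to 9.15 CPM (log2 fold change -0.91 ± 0.21). AT1G19530 was at 55.7 and 45.7 CPM against 72.8, 106 and 271 CPM (log2 fold change -1.43 ± 0.50). AT5G66580 was at 5.63 and 5.92 CPM against at least 8.36 CPM. The widest gap below was at the defensin-like gene AT4G22217, with 0.349 CPM in tt3-3 and 0.073 CPM in tt3-4, against 0.774, 1.80 and 3.42 CPM as low, median and high of the 12. These levels rest on 7 counts in tt3-3 (95% Poisson interval 0.14 to 0.719 CPM) and 2 counts in tt3-4 (0.00885 to 0.264 CPM). AT4G22217 was lower by DESeq2 (adjusted p = 0.0427) and did not pass in edgeR (log2 fold change -3.12 ± 0.74, adjusted p = 0.962).

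**Figure D1:**
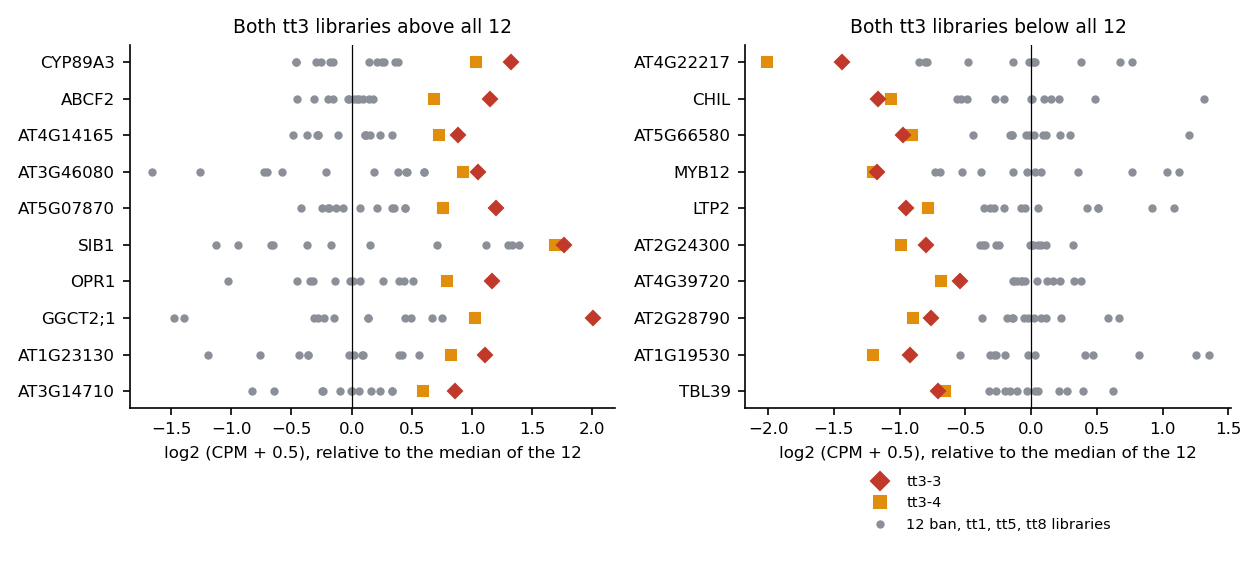
The 10 genes with the widest gap above (left) and below (right) the 12 other libraries, as log2 (CPM + 0.5) relative to the median of the 12. Each point is 1 library: tt3-3 (diamond), tt3-4 (square) and the 12 (grey), and both tt3 points lie outside the grey range in every gene, the nearer of them by at most 1.57-fold on CPM + 0.5.

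Of the flavonoid genes, MYB12 and CHIL stood below all 12 in both libraries labelled tt3, and DFR did not. Over all genes tested, 1.28% stood below all 12 in both. MYB12, an activator of flavonol synthesis, was at 4.68 CPM in tt3-3 and 4.57 CPM in tt3-4, against a low of 6.51, a median of 11.2 and a high of 24.9 CPM in the 12. Both tt3 libraries were below all 12 and close to each other (log2 fold change -1.49 ± 0.51, unadjusted p = 0.0117). CHIL, a chalcone isomerase-like protein that aids CHS, was at 6.63 and 7.12 CPM in tt3-3 and tt3-4, against 10.3, 15.4 and 39.2 CPM in the 12 (log2 fold change -1.28 ± 0.43, unadjusted p = 0.0100). FLS1 was at 15.4 and 18.4 CPM in tt3-3 and tt3-4, against 13, 44.5 and 80.2 CPM in the 12 (log2 fold change -1.42 ± 0.56, unadjusted p = 0.0231). For FLS1 the groups overlapped, since tt8-8 (13) and ban-6 (18.1) were as low. The other early genes lay within the range of the 12. CHS was at 530 and 794 CPM in tt3-3 and tt3-4 against 325, 1197 and 1696 CPM (log2 fold change -0.72 ± 0.57), and flavanone 3-hydroxylase (F3H) at 87.1 and 148 CPM against 57.9, 230 and 319 CPM (log2 fold change -0.76 ± 0.60). Flavonoid 3'-hydroxylase (F3'H) was at 42.5 and 81.1 CPM against 24.8, 105 and 253 CPM (log2 fold change -1.07), and CHI at 34 and 55.5 CPM against 4.17, 64.5 and 87.5 CPM, where the low values are those of the tt5 lines (log2 fold change -0.28). All 6 early genes had a log2 fold change below 0, as did 56.1% of all genes tested, and their median was -0.91 against -0.04 for all genes. These 6 were chosen with earlier results of these data known, so their counts are a description. None passed the adjusted test and 2 of 6 were lower at an unadjusted p under 0.05, against 1.77% of all genes. With a term for the SAIL collection in the fit, the log2 fold change was -1.60 for MYB12, -1.06 for CHIL and -1.59 for FLS1. All 6 early genes had a lower level in tt3-3 than in tt3-4. The share of all genes lower in tt3-3 than in tt3-4 was not counted.

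The late anthocyanin genes did not share the shift of the early genes against the 12. Between the tt3 alleles they went the same way as the early genes, and 1 of the 11 was higher in tt3-3. Their median log2 ratio of tt3-3 to tt3-4 was -0.44, against -0.64 for the early genes. Of 11 members 4 had a log2 fold change above 0 and 7 below, with a median of -0.11, and none passed the test or had an unadjusted p under 0.05. Anthocyanidin synthase (LDOX) was at 65.7 and 94.1 CPM in tt3-3 and tt3-4, against a median of 74.1 and a high of 181 CPM in the 12 (log2 fold change -0.04). The glucosyltransferase gene UGT79B1 was at 25.9 and 39.6 CPM against a high of 109 CPM, and UGT75C1 at 28.6 and 43.9 CPM against 11.4 to 106 CPM. The glutathione transferase gene GSTF12 (TT19), which takes part in carrying anthocyanins to the vacuole, was at 46.0 and 80.9 CPM against 18.9 to 150 CPM. The flavonoid glucosyltransferase gene UGT78D2 was at 40.4 and 53.2 CPM against 26.4 to 57.8 CPM. The acyltransferase genes 3AT1, 3AT2 and 5MAT, the acyltransferase-like SCPL10 and the glycosidase BGLU10 also lay inside the range of the 12 in both tt3 libraries. The regulators showed no shared shift: of 17 tested of 22, 6 had a log2 fold change above 0 and 11 below (median -0.21). By edgeR 0 of them passed the adjusted test. At an unadjusted p under 0.05, 0 were higher and 2 were lower, against 1.77% lower over all genes. These 2 were MYB12, given above, and HY5 (log2 fold change -0.38, unadjusted p = 0.0255). TT8 itself was at 17.2 and 20.1 CPM in tt3-3 and tt3-4 against 6.77, 18.1 and 108 CPM. PAP1, the MYB partner of TT8 in anthocyanin synthesis, was at 10.4 and 6.98 CPM against 3.91, 9.74 and 20.9 CPM. MYB111, which shares targets with MYB12, was above all 12 in tt3-3 at 3.14 CPM and inside their range in tt3-4 at 1.02 CPM (low 0.217, median 1.2 and high 2.48 CPM in the 12). HY5, a light-signalling factor, was below all 12 in tt3-3 at 11.8 CPM and inside the range in tt3-4 at 14.5 CPM (13.5 to 20.4 CPM in the 12).

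The level of DFR relative to 5 of the 6 early genes was higher in both tt3 libraries than in any of the 12. This ratio does not depend on the scaling of libraries and was chosen after its values were seen, so it is given with no test. DFR over FLS1, as CPM over CPM, was 12.8 in tt3-3 and 14.8 in tt3-4, against a low of 0.55 in tt8-7, a median of 3.45 and a high of 6.52 in tt8-10. The lower tt3 library was thus 1.96-fold above the highest of the 12. DFR over CHS was 0.372 and 0.343 in tt3-3 and tt3-4, against 0.0322, 0.149 and 0.265 in the 12. DFR over F3H was 2.26 and 1.84 against at most 1.24, DFR over F3'H 4.64 and 3.35 against at most 2.38, and DFR over CHIL 29.7 and 38.2 against at most 23.2. Only DFR over CHI did not stand apart, at 5.79 and 4.90 against 0.905 to 47.0, the high end being that of tt5-3. Over all 66 ratios of a late to an early gene, both tt3 libraries were above all 12 in 13, of which 5 had DFR on top. Of the 13, 4 had FLS1 below and 5 had CHIL below, DFR included, and 1 was LDOX over F3'H. The 66 ratios reuse 11 late and 6 early genes, so they are not independent of each other. CHIL by itself already lay below all 12 in both tt3 libraries. In tt3-3 DFR was at 197 CPM, against a median of 198 CPM in the 12. The 6 early genes summed to 716 CPM in tt3-3, against a median of 1738 CPM in the 12. In ban-6, tt5-4 and tt8-8 that sum was lower than in tt3-3, at 584, 545 and 502 CPM. In those libraries DFR was lower than in tt3-3 as well. Ratios of other gene pairs were not counted.

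**Figure D2:**
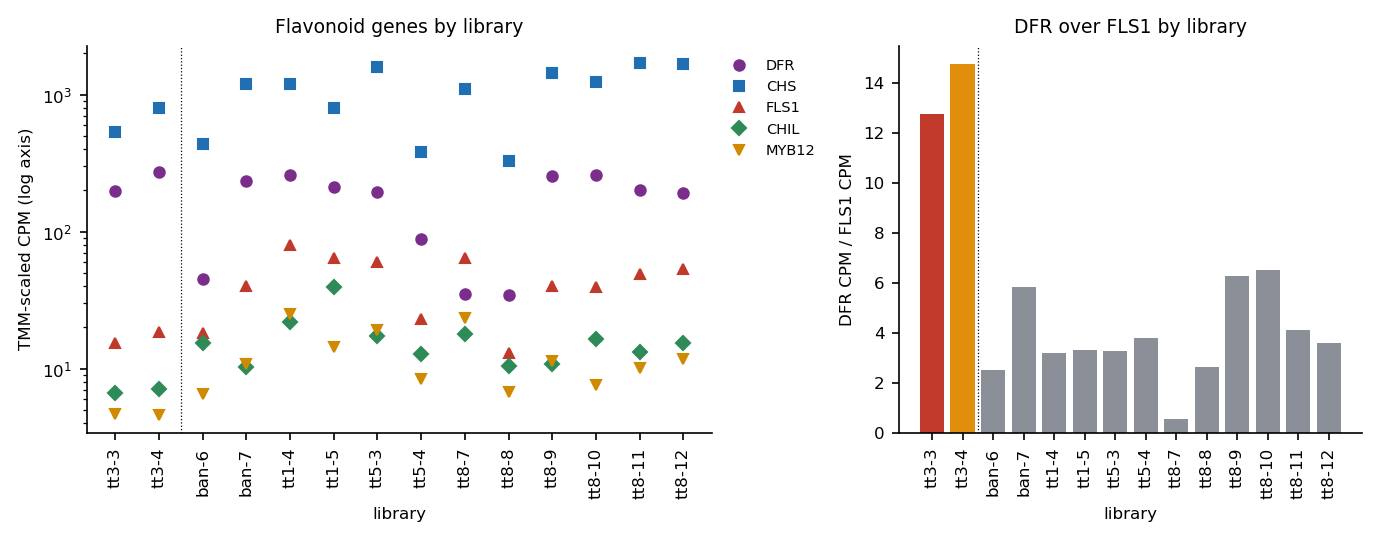
Left, TMM-scaled CPM on a log axis of DFR, CHS, FLS1, CHIL and MYB12 in each of the 14 libraries, with tt3-3 and tt3-4 left of the dotted line. Right, the CPM of DFR over that of FLS1 in the same libraries, 12.8 and 14.8 in tt3-3 and tt3-4 and at most 6.52 in the 12.

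The 250 bases before the annotated start of DFR, CHIL and FLS1 are shown because these genes carry the contrast. They are from TAIR10.1, read 5' to 3' on the gene's strand, with capitals at a match to ACCNACC, a core of MYB recognition elements of flavonoid genes, searched on both strands. The stretches are chr5:17166033-17166282 for DFR (minus strand), chr5:1563036-1563285 for CHIL (plus strand) and chr5:2803583-2803832 for FLS1 (plus strand), from RefSeq.
DFR: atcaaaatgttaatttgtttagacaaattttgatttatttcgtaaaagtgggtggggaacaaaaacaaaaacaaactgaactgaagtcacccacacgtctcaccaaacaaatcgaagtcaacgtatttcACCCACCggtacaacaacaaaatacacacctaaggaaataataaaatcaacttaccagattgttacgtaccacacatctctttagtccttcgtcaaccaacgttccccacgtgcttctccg
CHIL: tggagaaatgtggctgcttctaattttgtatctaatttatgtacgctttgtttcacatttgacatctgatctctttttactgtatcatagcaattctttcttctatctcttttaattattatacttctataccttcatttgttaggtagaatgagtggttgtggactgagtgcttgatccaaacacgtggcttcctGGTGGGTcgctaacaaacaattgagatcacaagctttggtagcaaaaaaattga
FLS1: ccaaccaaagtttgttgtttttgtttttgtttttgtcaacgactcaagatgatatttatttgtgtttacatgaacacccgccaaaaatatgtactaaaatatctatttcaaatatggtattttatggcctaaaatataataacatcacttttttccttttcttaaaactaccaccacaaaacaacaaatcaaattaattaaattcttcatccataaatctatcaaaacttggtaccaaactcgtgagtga
DFR and CHIL held 1 match each and FLS1 held none in this window. Over the lists, 1 of 6 early genes (CHIL) and 4 of 11 late genes (DFR, UGT75C1, 5MAT and SCPL10) held a match, against 6.10% of 27443 such stretches over the genome. A match describes the letters of this window only.

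Of 10 genes of the low-oxygen response, 4 stood below all 12 in tt3-3, against 6.21% of all genes, and 1 of them in both tt3 libraries. HRA1, a trihelix factor that dampens the low-oxygen response (AT3G10040), was at 85.8 CPM in tt3-3 and 158 CPM in tt3-4, against a low of 189, a median of 259 and a high of 340 CPM in the 12. Both tt3 libraries were below all 12, and tt3-3 was the lower. The log2 fold change was -1.07 ± 0.24, with an unadjusted p of 4.49e-04 and an adjusted p of 0.962 in edgeR, and HRA1 was lower by DESeq2 (adjusted p = 0.027). LBD41, a LOB-domain factor of the same response, was at 271 CPM in tt3-3, below all 12, and at 467 CPM in tt3-4, inside their range of 448 to 621 CPM (log2 fold change -0.54). The plant cysteine oxidases PCO1 and PCO2, which mark the low-oxygen factors for breakdown when oxygen is present, showed the same split. PCO1 was at 84.3 and 140 CPM in tt3-3 and tt3-4 against 119 to 180 CPM (log2 fold change -0.50), and PCO2 at 152 and 242 CPM against 178 to 323 CPM (log2 fold change -0.45). SUS4, a sucrose synthase, was the other member below all 12 in tt3-4 (as were 5.71% of all genes), at 197 CPM in tt3-3 and 68.3 CPM in tt3-4 against 76.3 to 517 CPM. The fermentation genes ADH1 and PDC1 lay inside the range of the 12 in both, with ADH1 at 2875 and 3293 CPM in tt3-3 and tt3-4 against 1828, 3846 and 5404 CPM. Of the 10 members 0 had a log2 fold change above 0, against 43.9% of all genes, with a median of -0.48. This list was chosen with earlier results of these data known, so its counts are a description. By edgeR 0 of the 10 passed the adjusted test, and DESeq2 called HRA1 alone. In edgeR 4 were lower at an unadjusted p under 0.05, against 1.77% of all genes.

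Of 14 tested genes of sulphate limitation, 4 stood above all 12 in both tt3 libraries, against 0.772% of all genes. This list of 15 was drawn up after values of its members had been seen, so its counts are a description. SDI1, a regulator of sulphur use induced by sulphur deficiency, was at 73.1 CPM in tt3-3 and 36.8 CPM in tt3-4, against a low of 6.20, a median of 26.7 and a high of 32.8 CPM in the 12 (log2 fold change 1.21 ± 0.44, unadjusted p = 0.016). GGCT2;1, a gamma-glutamyl cyclotransferase of glutathione breakdown, was at 16.3 and 8.00 CPM in tt3-3 and tt3-4, against 0.998, 3.67 and 6.51 CPM (log2 fold change 1.67 ± 0.47, unadjusted p = 0.00326). APR3, a sulphate-reducing enzyme, was at 326 and 251 CPM against 56.6, 157 and 227 CPM (log2 fold change 0.97 ± 0.36). At these genes both tt3 libraries were above all 12 under each of the 3 scalings. APR1 was above all 12 by a small margin, at 193 and 164 CPM against at most 161 CPM (log2 fold change 0.60), and not with plain totals. BGLU28, a beta-glucosidase, was at 57.9 CPM in tt3-3, above all 12, and at 19.9 CPM in tt3-4, inside their range of 2.73 to 20.8 CPM. The transporter gene SULTR1;2 lay inside the range in both, at 748 and 784 CPM against 309 to 1028 CPM, and so did LSU1 and LSU3. Of the tested members 13 had a log2 fold change above 0, against 43.9% of all genes, with a median of 0.45 against -0.04. None passed the adjusted test, and 5 were higher at an unadjusted p under 0.05, against 1.19% of all genes. With a term for the SAIL collection in the fit, the log2 fold change was 0.98 for SDI1, 1.28 for GGCT2;1 and 0.52 for APR3. In the neighbouring list of nitrate and phosphate genes, SQD2, which makes sulpholipid under phosphate limitation, was above all 12 in both, at 85.4 and 71.8 CPM against 42.2, 51.9 and 64.8 CPM (log2 fold change 0.58 ± 0.15, unadjusted p = 0.0018).

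Heat shock genes stood high in tt3-3 and inside the range of the 12 in tt3-4. The summed level of the 22 members was 2797 CPM in tt3-3 and 1520 CPM in tt3-4, against a low of 541, a median of 1069 and a high of 2569 CPM in the 12. The high values of the 12 were those of tt5-4 (2569), tt8-7 (2441), ban-6 (2234) and tt8-8 (1972), so the summed level of tt3-4 lay inside their range and tt3-3 just above it. HSP17.6II, a small heat shock protein, was at 71.7 CPM in tt3-3 and 28.6 CPM in tt3-4, against 5.63, 18.8 and 32.6 CPM as low, median and high of the 12 (log2 fold change 1.44 ± 0.47, unadjusted p = 0.0078). The plastid small heat shock protein gene HSP21 was at 21.0 and 5.51 CPM in tt3-3 and tt3-4 against 1.16, 3.68 and 7.95 CPM (log2 fold change 1.69 ± 0.56), and HSP18.2 at 43.7 and 14.5 CPM against 5.85, 10.8 and 24.7 CPM (log2 fold change 1.21 ± 0.41). Without tt3-3 these log2 fold changes were 0.63, 0.43 and 0.21. The factor gene HSFA2, which sustains the heat response, was at 59.0 and 22.1 CPM against 5.96 to 37.6 CPM, and the chaperone gene HSP101 at 237 and 115 CPM against 36.7 to 230 CPM. In all, tt3-3 was above all 12 at 16 of the 22 members and tt3-4 at 0, and all 22 were higher in tt3-3 than in tt3-4. Over all genes, the median gene lay at -0.00 in tt3-3 and -0.01 in tt3-4, relative to the median of the 12 on the log2 scale. The share of all genes higher in tt3-3 than in tt3-4 was not counted. Above all 12 there were 1114 genes in tt3-3 (5.41% of those tested) and 944 in tt3-4 (4.58%). All 22 log2 fold changes were above 0, against 43.9% over all genes, with a median of 0.83. The heat shock list was chosen with earlier results of these data known, so its counts are a description. By edgeR and by DESeq2 0 of the 22 passed the adjusted test. In edgeR 9 were higher at an unadjusted p under 0.05, against 1.19% of all genes. Many of these proteins have close relatives, and how reads shared between them were counted is not given. Hsp70-2, named after its values were seen, was above all 12 in both, at 94.7 CPM in tt3-3 and 100 CPM in tt3-4 against 37.8, 50.6 and 86.0 CPM (log2 fold change 0.85 ± 0.21).

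**Figure D3:**
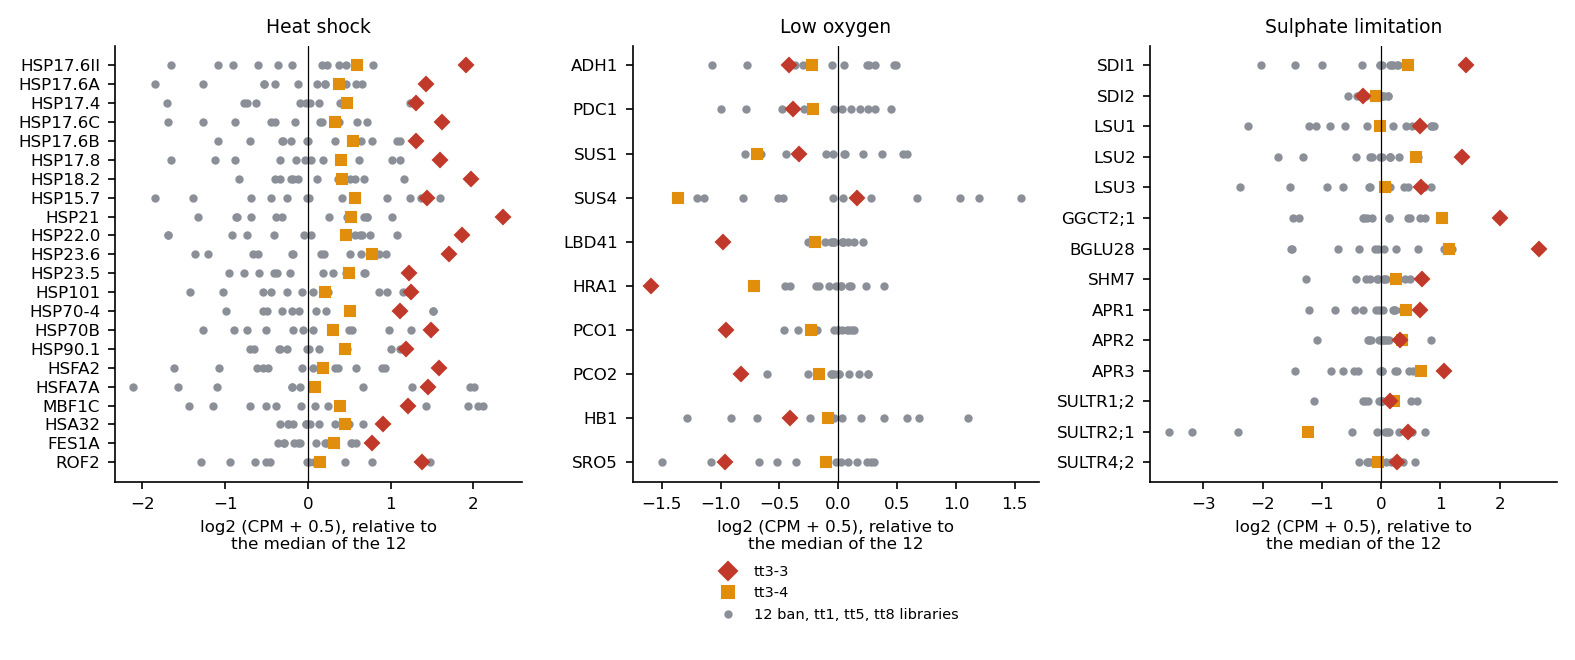
Tested members of the heat shock, low oxygen and sulphate limitation lists, as log2 (CPM + 0.5) relative to the median of the 12 other libraries. Each point is 1 library: tt3-3 (diamond) lies above the grey range at 16 of 22 heat shock genes, and tt3-4 (square) at 0.

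In the other lists 0 members passed the adjusted test in edgeR or DESeq2, and 3 nitrate and phosphate genes and 1 defence gene had an unadjusted p under 0.05. Over all genes 2.96% had such an edgeR p. Phenylpropanoid entry genes had a log2 fold change above 0 at 4 of 9 tested members, with a median of -0.03. By the same measures the values were 4 of 13 and -0.09 for lignin and sinapate, 1 of 4 and -0.20 for flavonol decoration, and 2 of 2 and 0.28 for proanthocyanidin genes. Jasmonate genes had 6 of 13 above 0 (median -0.02) and photosynthesis genes 7 of 16 (median -0.11). Further lists were suberin (8 of 10, 0.19), nitrate and phosphate (8 of 10, 0.46), salicylic acid and defence (13 of 15, 0.43), sugar (2 of 11, -0.37) and indole and camalexin (2 of 8, -0.49). With a term for the SAIL collection in the fit, these medians were 0.24, 0.15, 0.09, 0.12 and -0.13 in the same order. The seed storage and oil body list had a median log2 fold change of -1.53, and its summed level of 3658 CPM in tt3-3 and 5636 CPM in tt3-4 lay beside a median of 5533 CPM in the 12, whose highest, tt1-4, was at 28812 CPM. Root hair (0 of 9 above 0, median -1.29), iron (2 of 7, -2.10), aliphatic glucosinolate (0 of 9, -0.78), cell division (0 of 9, -0.31) and abscisic acid and cold genes (0 of 11, -0.59) had medians below 0. With the SAIL term these medians were -1.22, 0.19, 0.02, -0.25 and 0.18 in the same order. The seed storage and oil body median was then -0.59. Relative to the median of the 12, the median iron gene lay at -0.01 in tt3-3 and -0.36 in tt3-4 on the log2 scale. The median aliphatic glucosinolate gene lay at 0.40 and -1.04. The summed level of the root hair list was 28.3 and 27.7 CPM in tt3-3 and tt3-4 against 17.1, 43.9 and 139 CPM, and that of the iron list 376 and 389 CPM against 340, 459 and 1356 CPM. None of these 6 lists had a member above or below all 12 in both tt3 libraries.

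The tt3 alleles were closer to each other than the ban, tt1 and tt5 alleles were. Both tt3 lines are SAIL lines, while the ban and tt5 pairs each mix a SAIL and a SALK line. At least 4-fold differences, on CPM + 0.5, were seen at 54 genes between tt3-3 and tt3-4, with 44 higher in tt3-3 (0.214% of those tested) and 10 higher in tt3-4 (0.0485%). The same count was 1557 for ban, 262 for tt1 and 413 for tt5. The root mean square log2 difference over all genes was 0.46 between the tt3 alleles, against 1.09 between ban, 0.61 between tt1 and 0.69 between tt5 alleles. Between pairs of tt8 alleles it was 0.26 to 0.81, with a median of 0.55, so the tt3 pair lay inside that range. They were still not each other's nearest library: tt8-10 was nearest to tt3-3 (0.38) and tt8-9 was nearest to tt3-4 (0.35). At 53 genes (0.257%) 1 tt3 library was above and the other below all 12, with tt3-3 the higher at 17 and tt3-4 the higher at 36.

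**Figure D4:**
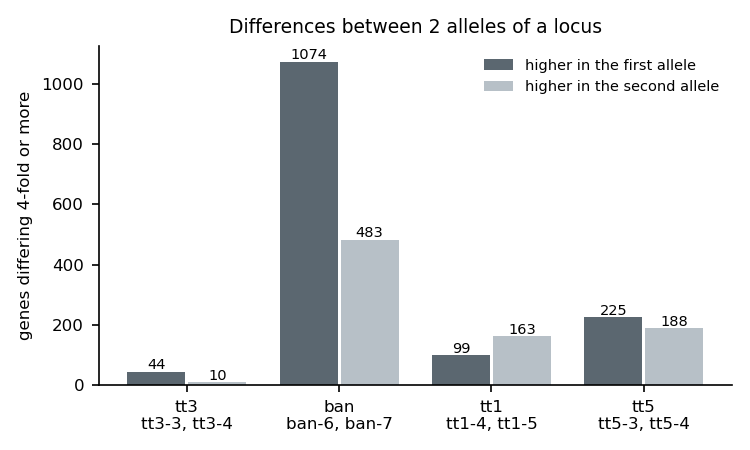
Number of genes differing at least 4-fold between the 2 alleles of a locus, by which allele was higher. The tt3 pair had 44 and 10 such genes, fewer than the ban, tt1 and tt5 pairs.

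The 2 genes called by edgeR were among these 54 genes and were high in tt3-3 alone. AT1G18280, a lipid transfer protein gene on chromosome 1 (6294160 to 6295372, plus strand), was at 35.0 CPM in tt3-3 (702 counts) and 0.256 CPM in tt3-4 (7 counts), against a low of 0.155, a median of 0.367 and a high of 0.731 CPM in the 12. Only tt3-3 was high, 47.9-fold above the highest of the 12. AT4G02850, of the phenazine biosynthesis PhzC/PhzF family, on chromosome 4 (1266463 to 1268612, minus strand), was at 31.0 CPM in tt3-3 and 0.986 CPM in tt3-4, against 0.342, 0.659 and 1.09 CPM. Here too only tt3-3 was outside the range of the 12, 28.6-fold above their highest. The log2 fold changes of the pair of libraries against the 12 were 5.37 ± 0.68 for AT1G18280 and 4.54 ± 0.57 for AT4G02850, each with an edgeR adjusted p of 0.0127. Without tt3-3 both calls ended, with log2 fold changes of -0.69 and 0.54 and adjusted p-values of 0.97. With 1 group per locus the adjusted p of each was 0.223, and with a term for the SAIL collection it was 1, at log2 fold changes of 5.36 and 3.98. Without tt3-4 both were called and AT1G18270 and AT4G32020 were called as well, a comparison of 1 library whose spread was taken from the 12.

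Of the 10 nearest annotated genes around AT1G18280, 1 of which (AT1G18310) was not tested, 4 were above all 12 in tt3-3, against 5.41% of all genes. EBS5 was just below all 12 in tt3-3, at 49.8 CPM, and was at 63.7 CPM in tt3-4, against 50.6 to 68.7 CPM in the 12. AT1G18270, a class II aldolase family gene on the other strand, is separated from it by 166 bases and was at 231 CPM in tt3-3, against 75.6 CPM in tt3-4 and 63.6, 77.9 and 93.6 CPM as low, median and high of the 12 (log2 fold change 0.99 ± 0.23). AT1G18290, 1846 bases beyond AT1G18280, was at 3.84 CPM in tt3-3, above all 12, and at 1.53 CPM in tt3-4 (0.83 to 2.17 CPM in the 12). The others above were NUDT4, at 84.2 CPM in tt3-3 and 52.3 CPM in tt3-4 against 14.3 to 76.0 CPM, and AT1G05397, at 1.74 and 0.657 CPM against 0.151 to 1.09 CPM. The stretch between AT1G18270 and AT1G18280, chr1:6293994-6294159 of TAIR10.1, is shown on the plus strand because both genes start at its edges and run away from it.
AT1G18270 to AT1G18280: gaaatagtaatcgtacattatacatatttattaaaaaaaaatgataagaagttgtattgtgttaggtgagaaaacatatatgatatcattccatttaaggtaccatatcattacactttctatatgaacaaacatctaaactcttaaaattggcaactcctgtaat
Beside AT4G02850 no neighbour had a like difference between the alleles. AT4G02840, which overlaps its end by 24 bases on the other strand, was at 25.2 and 28.0 CPM in tt3-3 and tt3-4 against 21.1 to 29.3 CPM, and AT4G02860, 5 bases beyond, was at 68.6 and 70.6 CPM against 49.5 to 68.4 CPM. The strand setting of the counting is not known here, so counts in such an overlap are uncertain. AT4G32020, on chromosome 4, was the reverse case, at 61.2 CPM in tt3-3 and 246 CPM in tt3-4 against 188, 238 and 260 CPM in the 12 (log2 fold change -0.62 ± 0.31 for both libraries, -1.93 without tt3-4 with an adjusted p of 7.53e-04). In tt3-3 its 10 nearest annotated neighbours lay between -0.30 and 0.50 relative to the median of the 12 on the log2 scale.

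At some other genes tt3-3 was high, tt3-4 was not, and 1 of the 12 was high too. AT5G24240, a phosphatidylinositol 4-kinase-like gene, was at 41.3 CPM in tt3-3 and 0.402 CPM in tt3-4, and among the 12 it was at 35.7 CPM in tt8-12 and at most 1.71 CPM in the others. It overlaps AT5G24230 by 49 bases, so its counts carry the same uncertainty. The non-coding RNA gene AT2G01422 showed the same pair of high libraries, with 15.6 CPM in tt3-3, 0.256 CPM in tt3-4, 13.6 CPM in tt8-12 and at most 3.03 CPM in the others. The glycine-rich protein gene GRP9 differed from these, as only tt3-3 stood out. It was at 36.0 CPM in tt3-3 and 1.31 CPM in tt3-4 against 0.11, 4.89 and 14.4 CPM in the 12. In tt3-3 alone 11 genes were at least 2-fold above all other 13 libraries and 1 was 2-fold below. These were AT1G18270, AT1G18280, AT4G02850, GRP9, HSP17.6II, HSP21, BGLU28, the ethylene response factor ERF13, the defence factor WRKY53, cPT4 and AT4G27654, and AT4G32020 below. In each of the 12, genes so far from all other libraries numbered 0 to 87 above and 0 to 122 below. WRKY53 was at 3.34 CPM in tt3-3 and 0.84 CPM in tt3-4 against 0.276 to 1.08 CPM, and ERF13 at 16.2 and 2.41 CPM against 1.94 to 7.85 CPM. The deadenylase gene CAF1a was at 143 CPM in tt3-3 and 46.5 CPM in tt3-4 against 13, 47.7 and 74.1 CPM, and BAP1, an inhibitor of cell death, at 51.9 and 16.2 CPM against 6.31, 17.2 and 27.4 CPM.

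Genes particular to tt3-4 in the same sense were fewer, with 1 at least 2-fold above and 3 at least 2-fold below all other 13 libraries. CYP714A1, a cytochrome P450 that inactivates gibberellin, was at 25.9 CPM in tt3-3 and 4.53 CPM in tt3-4, against 15.2, 27.2 and 45.3 CPM in the 12. The defensin-like gene AT4G11393 was at 0.15 CPM in tt3-3 (3 counts) and 4.67 CPM in tt3-4 against at most 1.82 CPM. The non-coding RNA genes AT3G29644 and AT3G05945 were low in tt3-4, at 1.21 CPM and 6.65 CPM against lows of 3.21 and 14 CPM in the other 13, the 14 being that of tt3-3. At AT3G05945 both tt3 libraries were thus below all 12, whose low was 14.7 CPM. Of genes higher in tt3-4 by ratio, UMAMIT25, a transporter of the amino acid exporter family, was at 2.64 CPM in tt3-3 and 20.2 CPM in tt3-4 against 2.05 to 16.6 CPM. ELI3-2, an alcohol dehydrogenase of defence responses, was at 6.18 and 45.4 CPM against 4.60 to 44.9 CPM. The protease inhibitor gene UPI was at 22.4 and 92.2 CPM against 13.9 to 80.2 CPM, and BIP3, a chaperone of the endoplasmic reticulum, at 2.49 and 10.7 CPM against 0 to 9.70 CPM. At these 4 genes tt3-4 passed the highest of the 12 by a small margin.

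At 38 of the 54 genes both tt3 libraries lay inside the range of the 12. Of the 44 genes higher in tt3-3, 38 were negative on the first principal component, and of the 10 higher in tt3-4 all 10 were positive, against 49.3% of all genes on the negative side. The tt3 libraries themselves entered this component, with scores of 1.3 in tt3-3 and 41.3 in tt3-4. Among the 44 were CASP1, CASP2 and CASP5, which encode membrane proteins of the Casparian strip in the root endodermis. CASP1 was at 25.7 CPM in tt3-3 and 5.95 CPM in tt3-4 against 2.62, 28.2 and 76.9 CPM in the 12. Genes of methionine-derived glucosinolates were also among them, with MAM1 at 5.38 CPM in tt3-3 and 0.804 CPM in tt3-4 against 0 to 51.2 CPM, and BCAT4 at 8.82 and 1.75 CPM against 0 to 46.5 CPM. Over the aliphatic glucosinolate list the median log2 ratio of tt3-3 to tt3-4 was 1.99, and 8 of 9 tested members were higher in tt3-3. The heat shock list, also higher in tt3-3 at 22 of 22 members, had a median ratio of 1.05 on the same scale. The share of all genes higher in tt3-3 than in tt3-4 was not counted, so these member counts have no such share beside them.

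**Figure D5:**
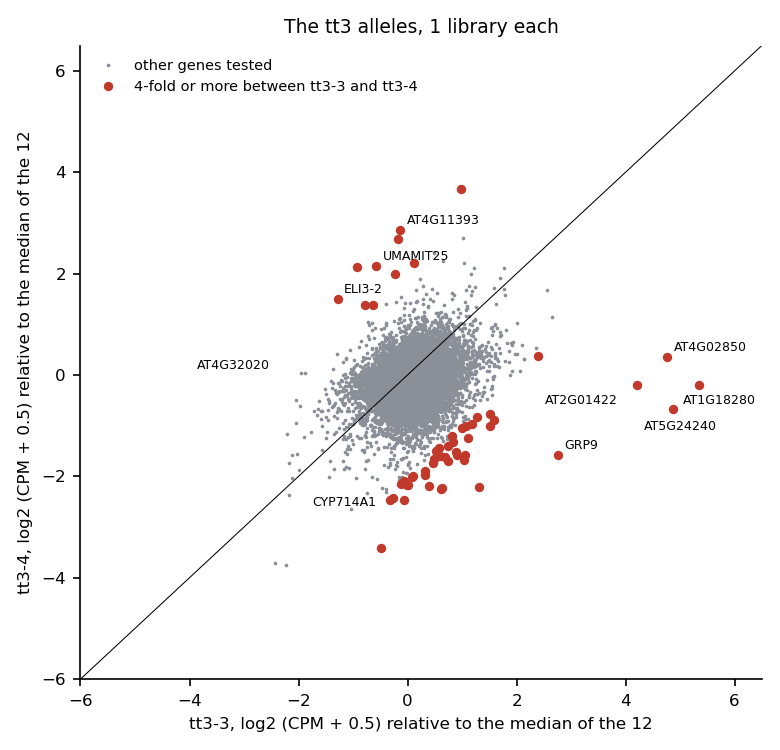
Each tested gene by its log2 (CPM + 0.5) relative to the median of the 12 in tt3-3 (horizontal) and tt3-4 (vertical), 1 library each. The 54 genes that differ at least 4-fold are red, and 4 of them, AT1G18280, AT4G02850, AT5G24240 and AT2G01422, lie far to the right because tt3-3 was high and tt3-4 was not.

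The genes around TT3 on chromosome 5 were mostly inside the range of the 12. Of the 10 annotated genes on each side, 15 were tested, and 0 lay outside the range of the 12 in both tt3 libraries. AT5G42765 was just below all 12 in tt3-3, at 6.08 CPM against 7.01 to 10.8 CPM, and at 7.09 CPM in tt3-4. AT5G42860 was at 8.57 CPM in tt3-3, below all 12, and at 10.4 CPM in tt3-4 (9.37 to 22.3 CPM in the 12). The nearest gene on one side, LCR28, was at 0 counts in all 14 libraries. The nearest on the other, IPK1, was at 28.6 and 31.8 CPM in tt3-3 and tt3-4 against 19.0 to 40.2 CPM. No gene was at 3 counts or fewer in 1 tt3 library while staying at 5 CPM or more in each of the other 13.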

How the data were processed

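Each library was sequenced as RNA from whole seedlings, and each deposited file holds whole-number counts per gene identifier made by the authors. Per the submitters' processing notes, HISAT2 and the genome build TAIR10 were used, and per the labels' protocols the kit was a stranded TruSeq kit. Not given in the sources used here: the counting program, its annotation and its strand setting. The 1392 identifiers outside AT1G to AT5G were left out. Their share of a library's counts was 0.00637% to 0.0178%. All 32547 locus identifiers matched RefSeq's TAIR10.1, which supplied coordinates and sequences.

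Genes were tested with edgeR 4.0.16 (quasi-likelihood, robust, TMM scaling, filterByExpr over the 2 arms, Benjamini-Hochberg adjustment over all 20607 genes, threshold 0.05) in R 4.3.3, with the 2 tt3 libraries as 1 arm and the 12 as the other. The procedure was run on simulated data whose spread was estimated within loci. These data held no differences among the 12 by locus, so that run does not cover such differences. Nothing states that libraries came from separate cultures, so p-values measure the spread between these libraries, which are of different alleles and loci. A gene set apart had both tt3 libraries above the highest or below the lowest of the 12 on log2 (CPM + 0.5), and the alleles were compared at 4-fold on CPM + 0.5. Poisson intervals (95%) cover counting error only. DESeq2 1.42.0, other scalings, filters and pseudocounts, a term for the SAIL collection, 1 group per locus and leaving out libraries were alternatives.

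Named genes were TT3, the early and late flavonoid genes, called genes, the 10 widest gaps each way, the 8 largest allele ratios each way among genes outside the range, up to 4 members of each other list, flanking genes of TT3 outside the range, and genes near absence in 1 tt3 library. Other genes were named after their values were seen. The members, the 22 lists (265 genes) and the list of sulphate genes were chosen with earlier results of these data known.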

Additional observations from a re-analysis of the deposited data

Results flagged for a closer look

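In 4 of 37 genes examined over the 6 tt8 libraries, 1 tt8 library lay far from the other 5, by Dixon's criterion. MYB12 was at 23.3 CPM in tt8-7, against 6.72 to 11.8 CPM in the others. PCO2 was at 323 CPM in tt8-9, against 260 to 272 CPM. SDI1 was at 9.39 CPM in tt8-9, against 26.3 to 32.3 CPM. Hsp70-2 was at 72.4 CPM in tt8-11, against 44.4 to 53.4 CPM. Chance flags about 1 in 20 groups. MYB12, PCO2 and SDI1 lie farther from the tt3 values in these libraries, and Hsp70-2 lies nearer to them.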

How the results depend on the processing

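The count of genes called by edgeR, 2, was 0 with 1 group per locus, 0 with a term for the SAIL collection, 0 in the SAIL libraries alone, 0 without the files with Windows line ends, 0 without the tt8 libraries and 4 with DESeq2. Leaving out 1 library at a time gave 0 (without tt3-3) to 4 (without tt3-4). Both tt3 libraries were above at 159 genes, and at 332 with plain totals, 1693 in the SAIL libraries alone, 588 without tt8 and 164 to 1114 leaving out 1 library, the high end being tt3-3 counted alone, without tt3-4. They were below at 264, and at 137, 2251, 686 and 270 to 1279 in the same settings, the high end again being tt3-3 alone. Leaving a library out of either arm can only leave such a count the same or raise it, apart from changes in scaling and in the genes tested. Genes 4-fold higher in tt3-3 numbered 151 with a pseudocount of 0.1 and 14 with 2, and in tt3-4 31 and 4. Of 851 values of 37 genes under 23 alternatives, 822 kept direction and side of the threshold, 11 lost a call, 4 gained one and 14 reversed. The reversed values were log2 fold changes of 0.50 and 0.31 for CHI and LDOX with 1 group per locus and 0.12 and 0.52 without tt8. Leaving out 1 library gave -0.66 to 0.03 for CHI, -0.31 to 0.20 for LDOX, -0.27 to 1.36 for MYB111, -0.69 to 6.38 for AT1G18280, -0.03 to 1.60 for AT1G18270 and -1.93 to 0.06 for AT4G32020. Except for LDOX, which also reversed without tt8-9 (0.05), tt8-10 (0.13), tt8-11 (0.03) or tt8-12 (0.05), these reversals were without tt3-3. The cause was not tested. No paired analysis was possible because replicate numbers here only order the alleles of a locus. With 2 libraries from 2 lines, a p that missed the threshold does not show that levels did not differ, and levels near 3 counts are uncertain.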
